A study of Mus musculus with 29 samples.

Results

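Prefrontal cortex of mice heterozygous for the K228E allele of Tbr1 was compared between lithium-treated and vehicle-treated animals. The comparison used 13 of the 29 libraries of the series, chosen by genotype and treatment in the sample labels: 7 from lithium-treated carriers (3 female, 4 male) and 6 from vehicle-treated carriers (3 female, 3 male). All 13 carried the same mutant Tbr1 allele on the C57BL/6J strain, were collected at postnatal day 40 and share 1 batch label. The other libraries are 8 from fluoxetine-treated carriers and 8 from vehicle-treated wild-type (WT) mice of the same line, strain, age and batch label. They enter only where named. The labels do not give the dose, route or duration of lithium, nor what the vehicle was. No WT library is labelled as lithium-treated, so an effect of lithium in WT mice was not tested, and every lithium value below comes from animals that also carry the mutation. Nothing in the labels says that each library came from a separate animal, so p-values measure only the spread between these libraries.

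Tbr1 is a T-box transcription factor of cortical glutamatergic neurons, most abundant in deep layers, and a gene linked to autism. Lithium is a mood stabiliser that inhibits the kinases encoded by Gsk3a and Gsk3b and the inositol phosphatases encoded by Impa1, Impa2 and Inpp1. Chaperones are proteins that help others fold: those of the cytosol are driven by the heat shock factor Hsf1, and those of the endoplasmic reticulum (ER), where membrane and secreted proteins fold, by the unfolded protein response through Atf6 and Xbp1.

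Values are reads per gene divided by a factor for library size, here called normalised reads. The lithium and vehicle libraries held 23348669 to 30463407 reads each. All 7 genes used as markers of cortical glutamatergic neurons were present in all 13 libraries, from at least 116 normalised reads for Foxp2 to at least 37656 for the vesicular glutamate transporter Slc17a7. Markers of tissue next to the cortex stood at unequal levels. The mean log2 level of the olfactory marker list, centred on all 29 libraries, ran from -2.25 to 0.68 in the lithium group and from -0.45 to 0.999 in the vehicle group, and 3 lithium libraries (female 2, males 1 and 3) stood below all others. Its summed level ran from 8478 to 23827 normalised reads with lithium and from 12841 to 29373 with vehicle. For the striatal list the mean ran from -0.43 to 0.87 with lithium and from -0.62 to -0.16 with vehicle, and lithium female 2 (0.87) and male 2 (0.56) stood above all the other 11 libraries. No marker of these lists was at 0 in all 13 libraries. List counts against vehicle are therefore also given without the 3 libraries low in olfactory markers, a set that still holds lithium male 2. The chaperone, deep layer and myelin counts are also given without the 2 libraries high in striatal markers. The part of the neighbouring tissue in other differences was not tested.

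**Figure D1:**
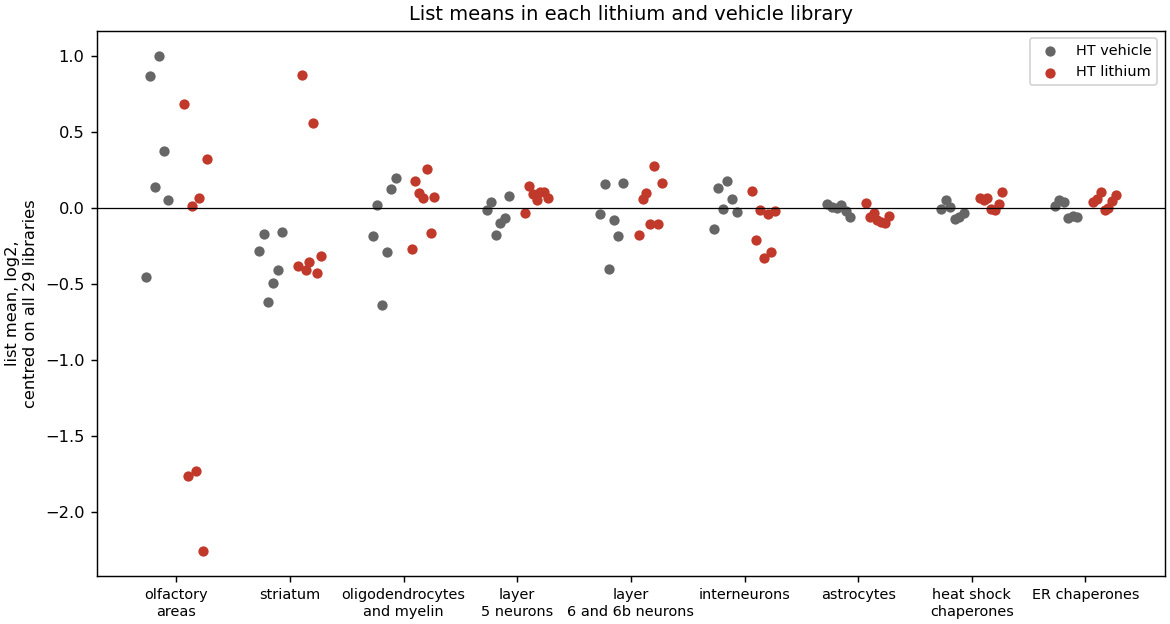
Mean log2 level of each of 9 gene lists (vertical axis, centred on all 29 libraries) in each library of the lithium (red) and vehicle (grey) groups; each point is 1 library. The heat shock and ER chaperone means lie mostly higher with lithium but the groups overlap, and 3 lithium libraries sit apart at the low end of the olfactory list.

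Lithium-treated carriers differed from vehicle-treated carriers by small amounts. The 20 genes with the smallest p, 10 in each direction among those with an assigned name and a mean of at least 50 normalised reads, differed by 1.10- to 1.23-fold upwards, among them Enox1, Pfkfb3, the chaperone Dnaja1 and the thyroid hormone deiodinase Dio2, and by 0.83- to 0.90-fold downwards, among them Cirbp, Polr2a and the glutamine transporter Slc38a3. At an unadjusted p under 0.05, 17 of 37 heat shock chaperone genes and 15 of 40 ER chaperone genes were higher with lithium. None of the 17388 genes tested passed an adjusted p of 0.05 in limma, the smallest adjusted p being 0.13, so each difference from vehicle is given as a value that did not pass. At an unadjusted p under 0.05 limma gave 2520 genes (14.5% of those tested), 1336 higher with lithium (7.68%) and 1184 lower (6.81%). edgeR's quasi-likelihood test on the recovered reads also called 0 genes, with a smallest adjusted p of 0.136, and gave 2442 (14%) at an unadjusted p under 0.05. Leaving out single libraries moved the limma counts: without lithium female 1 it called 137 genes, and without vehicle male 1 it gave 1678 at an unadjusted p under 0.05. DESeq2 on the same reads called 300 of the 7612 genes to which it gave an adjusted p (3.94%), 217 higher (2.85%) and 83 lower (1.09%).

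The higher and lower genes also differed in abundance and base composition. Among the 5850 genes with a mean of at least 1000 normalised reads, 898 were higher (15.4%) and 373 lower (6.38%) at an unadjusted p under 0.05. The median GC content of the gene models was 45.7% for the 1336 higher genes, 52.6% for the 1184 lower genes and 49.4% for all tested. Each library's mean log2 deviation of genes high in GC content, minus that of genes low in it, served as an index. Its median was -0.047 (range -0.138 to 0.067) in the lithium group and 0.065 (range -0.078 to 0.096) in the vehicle group. Removing the GC trend of each library left 1312 genes higher (7.55%) and 1101 lower (6.33%). Without the 3 lithium libraries low in olfactory markers, 807 were higher (4.69%) and 714 lower (4.15%), and without the 2 high in striatal markers 1032 (5.97%) and 879 (5.09%). List counts below are at an unadjusted p under 0.05 and stand beside 7.68% higher and 6.81% lower of all genes, and 15.4% and 6.38% of these abundant genes. A share near those values is no result about a list. All 13 libraries entered the values that follow unless stated.

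**Figure D2:**
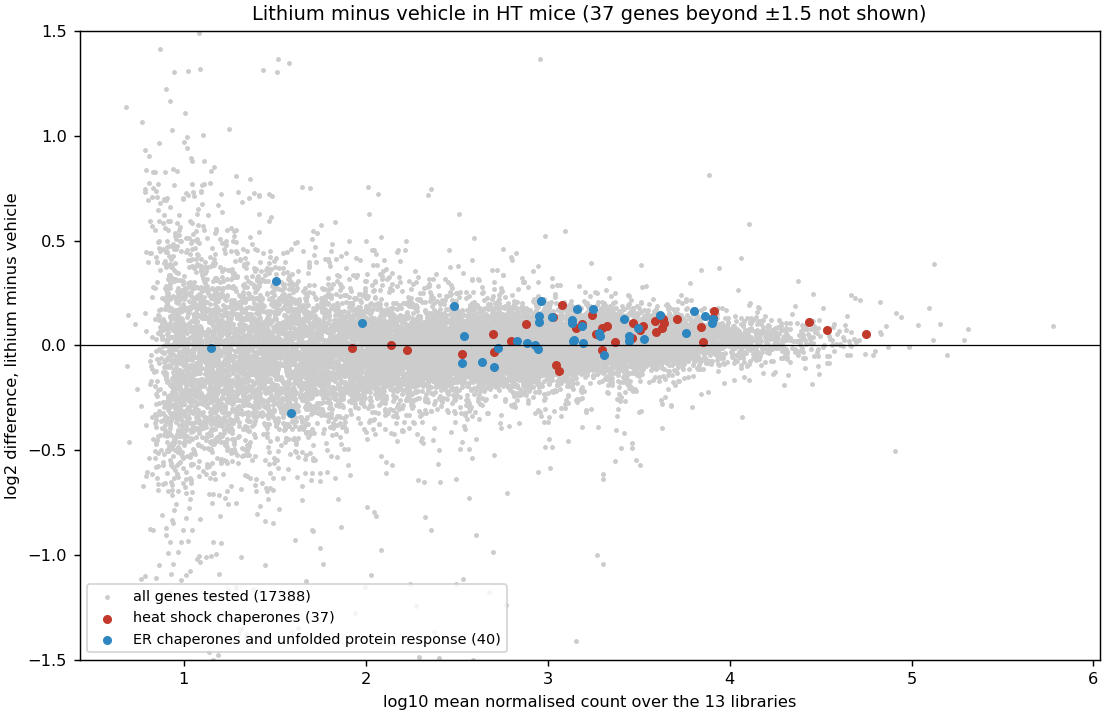
Log2 difference, lithium minus vehicle (vertical axis), of each gene tested against its mean level in normalised reads (horizontal axis, log scale); 37 genes beyond ±1.5 are not shown. The 37 heat shock members are red and the 40 ER members blue; most genes lie close to 0, and more red and blue points lie above it than below.

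Among genes higher with lithium, 4 encode parts of metabolism and transport. Pfkfb3 (chr2:11471433-11554077, GRCm38) makes the activator of phosphofructokinase that speeds glycolysis. Its lowest, median and highest values were 1227, 1285 and 1404 normalised reads with lithium and 997, 1171 and 1223 with vehicle. The difference was 0.21 ± 0.037 (log2 ± SE, 1.16-fold; limma adjusted p = 0.13), and all 7 lithium libraries lay above all 6 vehicle libraries. Slc35f3, a putative thiamine transporter, stood at 713, 819 and 846 with lithium and 603, 655 and 720.0 with vehicle. Its log2 difference of 0.30 ± 0.054 was the largest of the 10 higher genes named by rank of p, although 1 lithium female fell within the vehicle range. Enox1, a cell-surface oxidase, was at 842, 909 and 934 against 755, 778 and 827, with no overlap and a log2 difference of 0.21 ± 0.036. For Slc30a9, of the zinc transporter family, the values were 4113, 4255 and 4313 against 3722, 3823 and 3995, again without overlap, and the difference was 0.14 ± 0.027.

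Dio2 encodes the deiodinase that turns the prohormone thyroxine into active triiodothyronine, in brain mainly in astrocytes. It stood at 3262, 3922 and 4076 normalised reads with lithium and 2788, 3113 and 3312 with vehicle, a log2 difference of 0.28 ± 0.055 (1.22-fold, limma adjusted p = 0.13), and the groups overlapped only at their edges. Arpc5, a subunit of the actin-branching Arp2/3 complex, was at 2134, 2253 and 2323 against 1909, 2044 and 2121, with no overlap between groups and a difference of 0.16 ± 0.031. The remaining pair bind signalling proteins. Cacybp, which binds calcyclin and a ubiquitin ligase, was at 1712, 1783 and 1843 against 1487, 1545 and 1664, without overlap (difference 0.19 ± 0.034). Schip1, a partner of the neurofibromatosis 2 protein, was at 4632, 4897 and 5163 against 3897, 4339 and 4724 (difference 0.19 ± 0.037). With Dnaja1, described among the chaperones, these are 9 of the 10 genes with the smallest p in this direction. They were chosen by that p, so the counts that follow are a description. All 10 were called by DESeq2, none by limma (adjusted p 0.13), and in 6 of 10 the groups did not overlap, where 0.362% of all genes showed lithium entirely above vehicle.

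Of the 10 genes with the smallest p among those lower with lithium, several act in transcription and RNA handling. Polr2a, the largest subunit of RNA polymerase II, stood at 2979, 3019 and 3189 normalised reads with lithium and 3136, 3449.5 and 3624 with vehicle. Its log2 difference was -0.17 ± 0.032 (0.89-fold; limma adjusted p = 0.13), and the groups overlapped at 1 edge. Cirbp (chr10:80165985-80172786, GRCm38), an RNA-binding protein induced by mild cold, was at 1338, 1416 and 1504 against 1524, 1629 and 1779, a difference of -0.22 ± 0.044, with every lithium library below every vehicle library. Smg9, of the machinery that removes messages with early stop codons, differed by -0.16 ± 0.032. Sox12, a transcription factor of the SoxC group, was at 745, 798 and 842 against 842, 889.5 and 1026 (difference -0.22 ± 0.041), the highest lithium value meeting the lowest vehicle value.

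Transport and membrane genes made up another share of the lower genes. Slc38a3, a glutamine transporter of astrocytes, stood at 2109.7, 2326 and 2498 normalised reads with lithium and 2429, 2729 and 3126 with vehicle. Its log2 difference of -0.27 ± 0.057 was matched by Abcc10, an export pump of the ABC family, at 318, 333 and 367 against 372, 403 and 443 (-0.27 ± 0.053). The Abcc10 groups did not overlap. Abcc10 overlaps Dlk2 on the opposite strand. The strand setting of the counting is not stated, so whether reads of the pair were kept apart is not known. Slc9a9, the endosomal sodium and proton exchanger NHE9, was at 619.6, 642 and 761 against 732, 780.0 and 819, a difference of -0.23 ± 0.050. Dpysl4, of the collapsin response mediator family that acts on growth cones, was at 1707, 1827 and 1852 against 1914, 2064 and 2109 without overlap (-0.17 ± 0.033). Cc2d2a, a protein of the base of cilia, was at 797, 831 and 887 against 911, 968 and 1043, also without overlap (-0.22 ± 0.039). Galc, the lysosomal enzyme that breaks down a myelin lipid, was lower by a log2 difference of -0.18 ± 0.041. Adjusted p-values of the 10 in limma were 0.13 to 0.144, DESeq2 called 9 of them (Abcc10 received no adjusted p), and 4 of 10 did not overlap, where 0.196% of all genes showed lithium entirely below vehicle. Without the 3 libraries low in olfactory markers, the signs of these 20 genes stayed as given and each had an unadjusted p under 0.05. That fit reuses libraries by which the genes were chosen, so it is a description and no independent check.

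**Figure D3:**
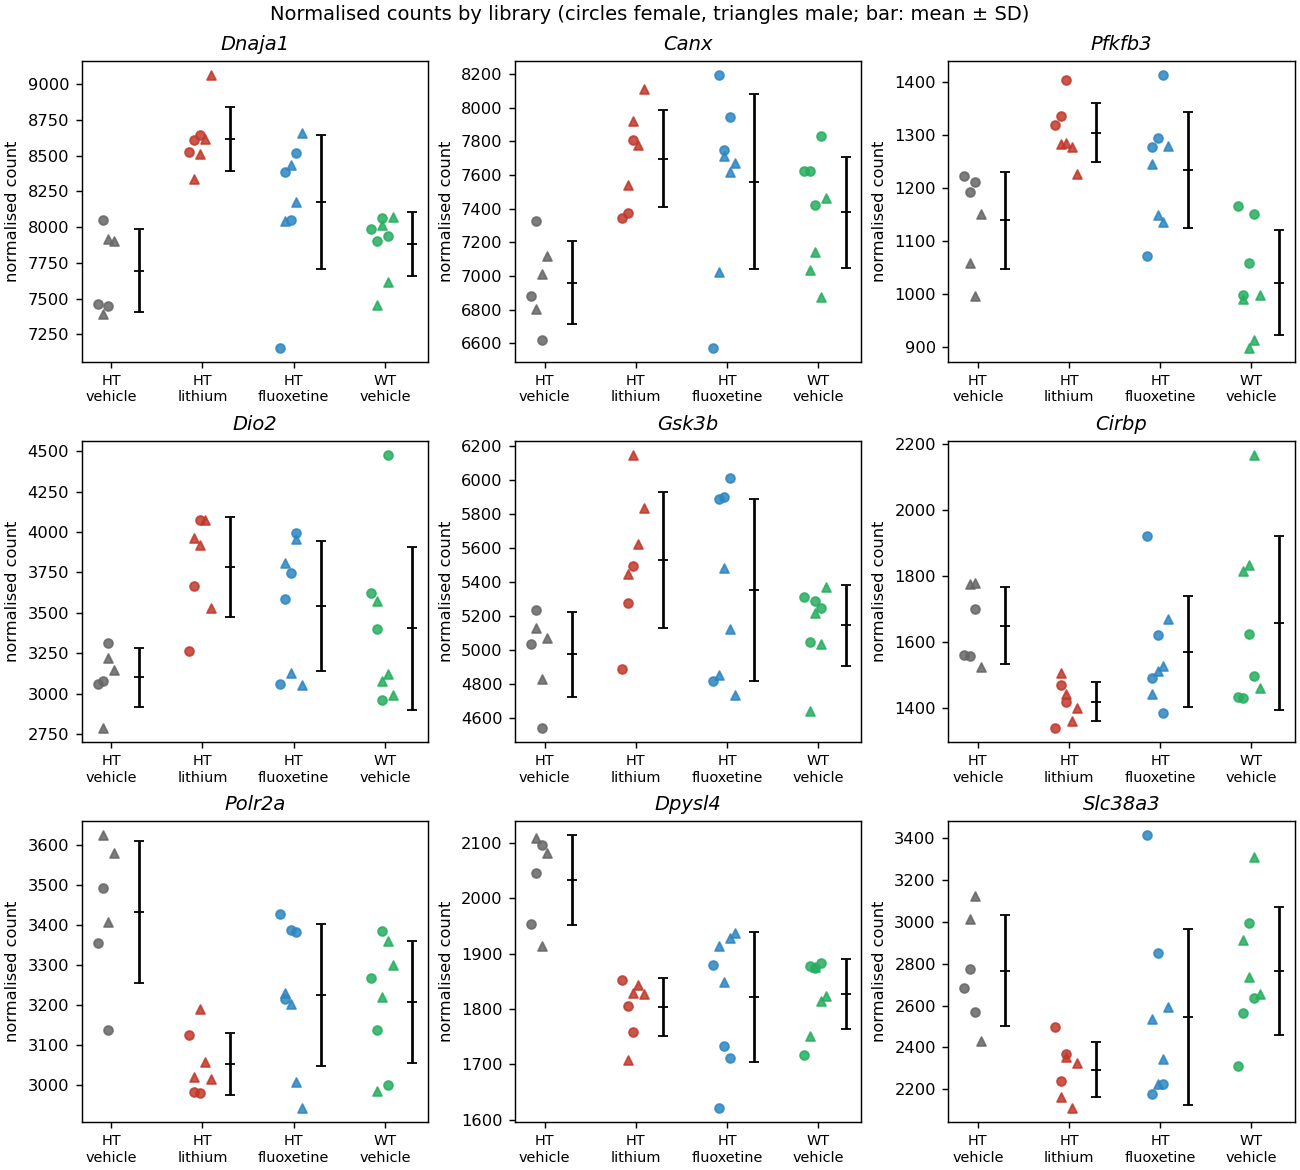
Normalised reads (vertical axis) of 9 genes in every library of 4 groups; circles are females, triangles are males, and the bar marks the mean with its SD. Dnaja1, Canx and Pfkfb3 show all 7 lithium libraries above the 6 vehicle libraries, Cirbp and Dpysl4 all 7 below, and the other genes overlap.

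Among the direct protein targets of lithium, Gsk3b showed the largest difference at the level of messages, and limma called none of them. Gsk3b, the kinase whose inhibition stabilises beta-catenin, stood at 4888, 5497 and 6149.8 normalised reads with lithium and 4540.2, 5054 and 5238 with vehicle. Its log2 difference was 0.15 ± 0.043 (limma adjusted p = 0.183; DESeq2 adjusted p = 0.0483), and the groups overlapped. Gsk3a, its close relative, was at 5551, 6263 and 6676 against 5843, 6139 and 6385 (difference 0.024 ± 0.038, limma adjusted p = 0.81). The difference took the opposite sign, -0.011, without the 3 libraries low in olfactory markers. Impa1, the inositol monophosphatase, was at 1664, 1745 and 1799.5 against 1558, 1646 and 1732 (difference 0.079 ± 0.035, adjusted p = 0.317). Its relative Impa2 stood at 140.2, 155 and 167 against 123, 152 and 164. Inpp1, the inositol polyphosphate phosphatase, was at 804, 839 and 907 against 842, 865 and 915, and Bpnt1, a lithium-sensitive nucleotidase, was at 1391, 1507 and 1564 against 1326, 1419 and 1491. The log2 differences were 0.066 ± 0.074 for Impa2, -0.033 ± 0.039 for Inpp1 and 0.074 ± 0.035 for Bpnt1. Groups overlapped for each of the targets. Tbr1 itself was at 3777, 4533 and 4738 with lithium, 3728, 3919 and 4593 with vehicle and 2151, 3035 and 3432 in WT mice, a lithium minus vehicle difference of 0.12 ± 0.061 (limma adjusted p = 0.376).

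Around these targets, 5 of 39 members of the inositol list were higher and 1 lower at an unadjusted p under 0.05, with a median log2 difference of 0.026 beside -0.0028 for all genes. They were Ipmk, an inositol phosphate kinase (0.10 ± 0.039), Synj1, Impa1, Pip5k1a and Slc2a13, and the lower one was the calcium release channel Itpr3 (-0.25 ± 0.11). The GSK3 and Wnt list had 3 higher and 8 lower of 55 and a median of -0.018. Dvl3, which relays Wnt receptor signals, was at 1935, 1987 and 2162 normalised reads against 2084, 2222 and 2458 (difference -0.14 ± 0.040). Sfrp1, a secreted Wnt antagonist, was at 356, 419 and 439 against 434, 439 and 560.5 (difference -0.21 ± 0.061). The co-receptor gene Lrp5 was also lower (-0.18 ± 0.064), while beta-catenin, Ctnnb1, stood at 14419.9, 14746 and 15409 against 14366, 14647 and 15533, a difference of -0.0012 ± 0.028. In the Akt, insulin and mTOR list 5 of 43 were higher and 5 lower. The higher shares of these lists were 12.8% for inositol, 5.45% for GSK3 and Wnt and 11.6% for Akt, each below that of abundant genes, and the lower shares were 2.56%, 14.5% and 11.6%. The higher and lower counts were 2 and 0 for inositol, 1 and 5 for GSK3 and Wnt, and 5 and 2 for Akt, insulin and mTOR without the 3 libraries low in olfactory markers.

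The heat shock chaperone list holds mostly cytosolic proteins and also the mitochondrial pair Hspd1 and Hspe1. All 37 listed genes were tested, 30 had a positive log2 difference and the median was 0.082. Of the 37, 17 were higher and 2 lower at an unadjusted p under 0.05, that is 45.9% higher beside 7.68% of all genes and 15.4% of abundant genes. DESeq2 gave an adjusted p to 30 members and called 6 higher and 0 lower. Of all genes to which it gave one, 2.85% were called higher and 1.09% lower. Without the 3 libraries low in olfactory markers the counts were 14 and 0, with both marker means as covariates 15 and 0 (5.17% and 4.54% of all genes), and with the GC trend removed 17 and 1. Without the 2 libraries high in striatal markers they were 13 and 1. The higher count dropped to 10 without vehicle male 1 alone. Summed over the list, the level was 208066 to 222136 normalised reads in lithium libraries and 191486 to 212319 in vehicle libraries, so the group ranges overlapped. In bulk tissue, more cells of a type and more RNA per cell cannot be told apart.

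Dnaja1 (chr4:40722150-40737149, GRCm38, plus strand), a J-domain protein that hands clients to Hsp70, stood at 8337, 8605 and 9064 normalised reads with lithium and 7392, 7684 and 8049 with vehicle, with group means of 8615 ± 223 (SD, n = 7) and 7695 ± 291 (SD, n = 6). No lithium library fell within the vehicle range. The gene overlaps Smu1 on the opposite strand. The difference of 0.16 ± 0.030 on the log2 scale (1.12-fold) had an adjusted p of 0.13 in limma and 0.000713 in DESeq2. Hspa4l, of the Hsp110 family that recharges Hsp70, was at 5207, 5369 and 5484 against 4572, 4946 and 5034, likewise without overlap (difference 0.13 ± 0.027). Hsp90aa1, the inducible cytosolic Hsp90, was at 27109, 28072 and 29209 against 24672, 26025 and 27196 (difference 0.11 ± 0.029), with groups that overlapped at 1 edge.

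Several partners of these chaperones had differences of like size. Of the Hsp90 co-chaperones, Chordc1 differed by 0.14 ± 0.046, Ahsa1 by 0.11 ± 0.034 and Stip1 by 0.083 ± 0.032 on the log2 scale. The mitochondrial chaperonin pair, Hspd1 and Hspe1, differed by 0.13 ± 0.038 and 0.13 ± 0.053. These genes lie head to head and overlap in the annotation. Hsph1, also of the Hsp110 family, was at 7855, 8646 and 8898 normalised reads against 7133, 7901 and 8178 (difference 0.13 ± 0.040). For the strongly heat-inducible genes the SE was wide: the differences were -0.030 ± 0.081 for Hspa1a and 0.057 ± 0.10 for Hspa1b, near-identical copies between which reads may be split, and 0.0021 ± 0.11 for the small heat shock gene Hspb1. For Hspa1a the sign turned (0.013) without the 3 libraries low in olfactory markers. The 2 lower members were Hspa2 (-0.12 ± 0.047) and the heat shock factor Hsf1 itself (-0.093 ± 0.041).

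ER chaperones and genes of the unfolded protein response showed 32 of 40 members with a positive difference and a median of 0.058. Here 15 were higher and 2 lower at an unadjusted p under 0.05. That is 37.5% higher beside 7.68% of all genes and 15.4% of abundant genes. Of the 30 members to which DESeq2 gave an adjusted p, it called 4 higher and 0 lower, beside 2.85% and 1.09% of all such genes. The counts were 12 and 1 without the 3 libraries low in olfactory markers, 15 and 2 without the 2 high in striatal markers, 13 and 1 with marker covariates, and 16 and 1 with the GC trend removed. Summed levels ran from 80573 to 87859 normalised reads with lithium and from 75363 to 83781 with vehicle. Canx (chr11:50293961-50325673, GRCm38, minus strand), the membrane lectin that holds new glycoproteins, stood at 7343, 7778 and 8110.3 against 6621, 6944 and 7329, a log2 difference of 0.14 ± 0.031 (1.10-fold; adjusted p = 0.144 in limma, 0.00381 in DESeq2), without overlap between groups. Pdia3, the disulfide isomerase that works with it, was at 4176, 4395 and 4503 against 3609.8, 3908 and 4244 (difference 0.15 ± 0.039). Pdia4, another isomerase, had the largest difference of the 15, 0.21 ± 0.067, at 840.0, 951 and 1100.5 against 715, 852 and 1021.

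The transcription factor gene Xbp1, a driver of this response, was at 1670.3, 1846 and 2089 normalised reads with lithium and 1434, 1669.7 and 1786 with vehicle (difference 0.17 ± 0.048). Gene-level values do not separate its spliced, active form. Dnajc3, the co-chaperone p58IPK, was at 1400.4, 1502 and 1700.0 against 1248, 1328 and 1474 (difference 0.17 ± 0.050). Hspa5, the ER Hsp70 called BiP, was at 5781, 6762 and 7465 against 5229, 5943 and 7076 (difference 0.16 ± 0.060), and Hsp90b1, the ER Hsp90, differed by 0.13 ± 0.042. For the last 4 genes the groups overlapped. None of the 3 sensors of the response reached an unadjusted p under 0.05, with differences of 0.047 ± 0.048 for Atf6, -0.080 ± 0.055 for Ern1 and -0.016 ± 0.043 for Eif2ak3. The lower pair were Edem2 (-0.10 ± 0.042) and the neurotrophic factor Cdnf (-0.32 ± 0.14). Of 33 members of the integrated stress response list, for which Eif2ak3 is one trigger, 2 were higher (Eif2s1 and Nars) and 0 lower, also without the 3 libraries low in olfactory markers, and the median was -0.0034.

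**Figure D4:**
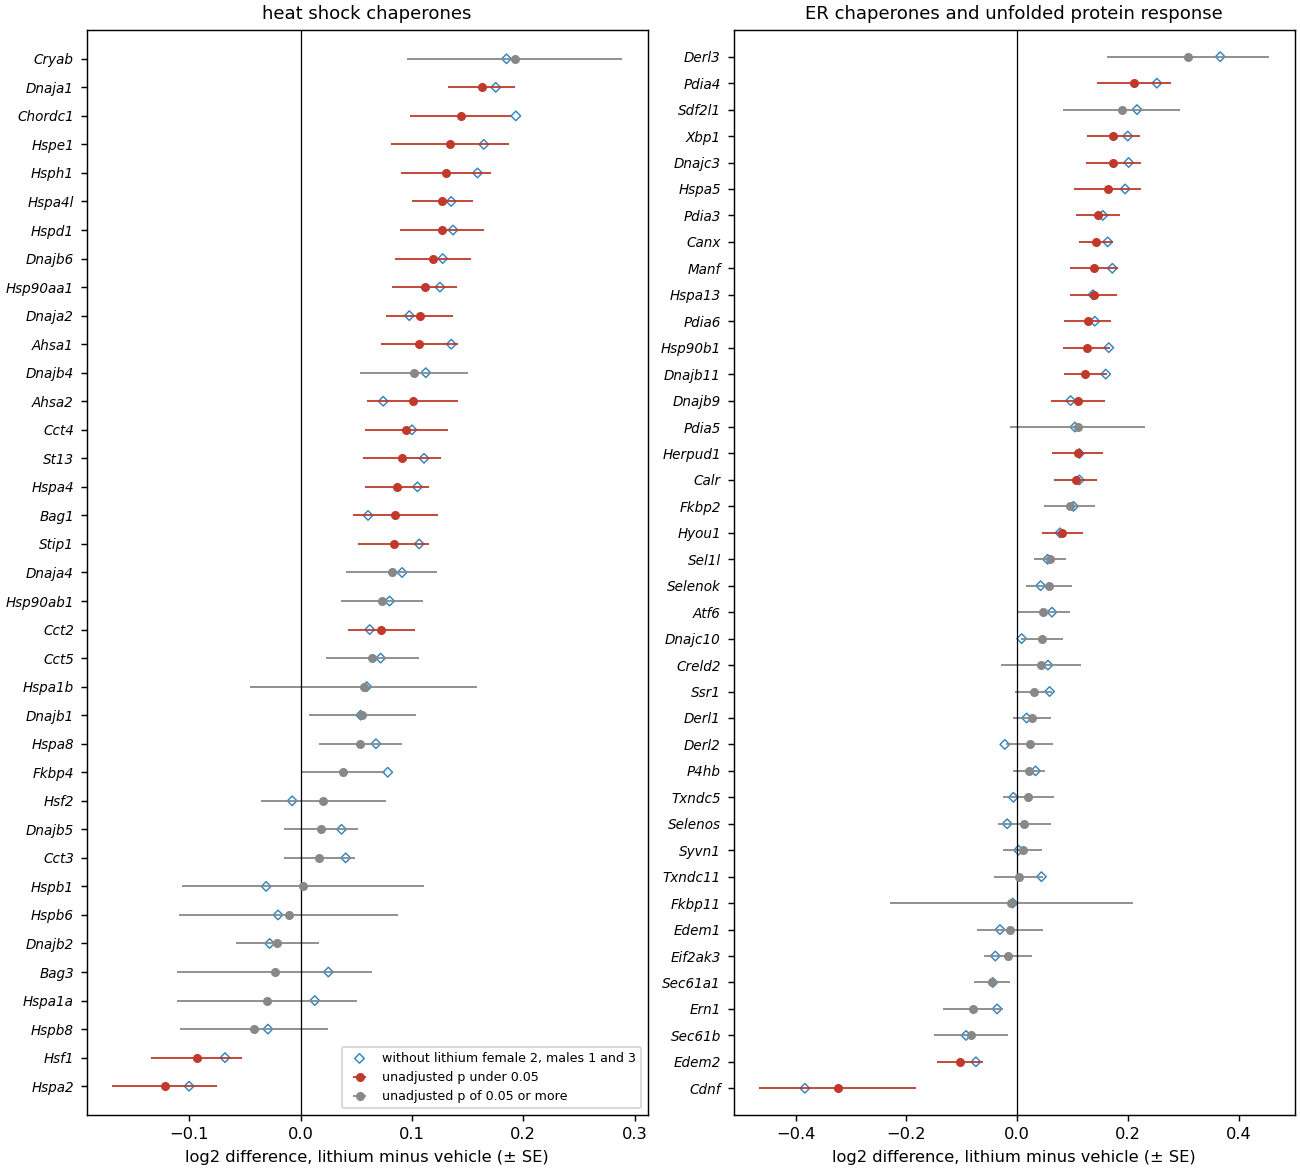
Log2 difference, lithium minus vehicle (horizontal axis), of the 37 heat shock and 40 ER members (points with SE bars, red where the unadjusted p was under 0.05) and the same difference without the 3 lithium libraries low in olfactory markers (diamonds). Most points lie to the right of 0, Dnaja1, Hsph1, Pdia4 and Xbp1 among them, while Hsf1, Hspa2 and Cdnf lie to the left in both fits.

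Promoter sequences of members of both lists are shown because each list has a known control element. The sequences are from RefSeq, build GRCm38.p6, and the genes were chosen after their values were seen. The ER stress response element, CCAAT and CCACG with 9 bases of any kind between them, was searched on both strands of the 250 bases before the start. It was found in 37 of 32851 promoters (0.113%; 0.13% of genes), and in 6 of the 12 higher ER members with an entry in the table (of 15). Over all listed ER members with an entry it was found in 9 of 34, among them Syvn1 and Creld2, whose differences were 0.0098 ± 0.035 and 0.043 ± 0.073. The promoter of Canx (minus strand, chr11:50325674-50325923) holds it 145 bases before the start, in capitals:
Canx: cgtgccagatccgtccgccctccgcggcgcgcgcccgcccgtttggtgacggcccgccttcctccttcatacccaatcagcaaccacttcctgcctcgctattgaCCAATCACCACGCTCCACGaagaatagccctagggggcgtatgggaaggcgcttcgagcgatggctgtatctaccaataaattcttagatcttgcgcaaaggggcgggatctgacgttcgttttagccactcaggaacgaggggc

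The matches of the other 5 members, as 30 bases around the element in capitals and 5′ to 3′ on the gene's strand, were on chromosomes 2 (Hspa5, chr2:34772020-34772049), 8 (Calr, chr8:84847069-84847098), 10 (Hsp90b1, chr10:86705632-86705661 and chr10:86705527-86705556), 12 (Pdia6, chr12:17266486-17266515) and 14 (Dnajc3, chr14:118937822-118937851). In Calr and in the second site of Hsp90b1 the element reads on the other strand, so the capitals start with CGTGG:
Hspa5: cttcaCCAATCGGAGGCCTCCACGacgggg
Calr: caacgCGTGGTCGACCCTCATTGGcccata
Hsp90b1, first site: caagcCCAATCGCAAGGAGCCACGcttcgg
Hsp90b1, second site: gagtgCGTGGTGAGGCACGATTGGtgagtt
Pdia6: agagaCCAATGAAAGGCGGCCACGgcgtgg
Dnajc3: cacaaCCAATCAGCGCCAACCACGacccgg

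Heat shock factor sites repeat the unit NGAAN in alternating orientation, searched here on both strands as GAANNTTC (6.69% of all promoters, 7.73% of genes) and TTCNNGAA (7.17% and 8.11%). Over all 37 listed members 30 had an entry, of which 11 held the first form (36.7%) and 6 the second (20%). Of the 17 higher heat shock members 14 had an entry, and 5 held the first form (35.7%) and 4 the second (28.6%), with Dnajb6, Hspd1 and Hspe1 holding both, in part as overlapping matches. The shared start region of Hspd1 and Hspe1 (chr1:55088053-55088082, shown on the minus strand, that of Hspd1) holds 3 matches that overlap one another. Those of Dnaja1 (chr4:40722333-40722362), Dnajb6 (chr5:29735844-29735873) and Hsph1 (chr5:149636351-149636380, minus strand) are given beside it, with the matched letters in capitals:
Hspd1 and Hspe1: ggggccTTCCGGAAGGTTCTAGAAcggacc
Dnaja1: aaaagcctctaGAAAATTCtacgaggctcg
Dnajb6: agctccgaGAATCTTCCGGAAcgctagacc
Hsph1: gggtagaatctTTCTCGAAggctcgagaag
Hspa1a, Hspa1b and Hspb1, whose differences did not reach an unadjusted p under 0.05, also hold the first form. A match of letters is a description and no measurement of binding.

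Activity-induced genes had members on both sides. Immediate early genes are switched on within minutes to hours of neuronal firing, and 8 of 43 were higher and 6 lower at an unadjusted p under 0.05, with a median of -0.054 (shares of 18.6% and 14%). On the higher side, Homer1, a scaffold of the postsynaptic density, stood at 5510.0, 6056 and 6640.1 normalised reads with lithium and 4794, 5329 and 5678 with vehicle (difference 0.21 ± 0.051; adjusted p = 0.144 in limma, 0.0066 in DESeq2). Ier5 was at 2186, 2467 and 2676 against 1832, 2253 and 2338 (difference 0.20 ± 0.050). Plk2, Ptgs2, Plk3, Rgs2, Dusp4 and the neurotrophin gene Bdnf (0.16 ± 0.071) were the others. On the lower side were the transcription factor genes Fos (-0.32 ± 0.13), Fosb (-0.49 ± 0.15), Jun (-0.19 ± 0.070) and Nr4a1 (-0.29 ± 0.10), with Btg2 and Gadd45g. Fos was at 1192, 1409.6 and 1665 against 1347, 1608 and 2524, groups that overlapped. Of this list 4 were higher and 0 lower without the 3 libraries low in olfactory markers. The activity gene Arc stood at 6772, 9419 and 10441 against 8584, 9243 and 10368, a difference of -0.060 ± 0.084.

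Glucocorticoid hormone acts through a nuclear receptor on the genes of the next list. In it 8 of 27 were higher (29.6%) and 2 lower (7.41%), and the median was 0.039. Of the 17 members to which DESeq2 gave an adjusted p, it called 3 higher and 1 lower, beside 2.85% and 1.09% of all such genes. Fkbp5, a co-chaperone of the glucocorticoid receptor, stood at 897, 1216 and 1307 normalised reads with lithium and 744, 931 and 1271 with vehicle (difference 0.32 ± 0.10; DESeq2 adjusted p = 0.0483). Zbtb16 was at 1103, 1155 and 1564 against 731, 1037 and 1353 (difference 0.29 ± 0.087), and Klf9 at 6273, 6588 and 7044 against 5856, 6099 and 6422 (difference 0.13 ± 0.035). The groups overlapped for all 3. The receptor genes Nr3c1 and Nr3c2 differed by 0.12 ± 0.049 and 0.15 ± 0.052. Ddit4, an inhibitor of mTOR that the same hormone induces, lay on the lower side (-0.17 ± 0.053), as did Angptl4 (-0.41 ± 0.16). Of 23 clock genes, 2 were higher (8.7%, near the background) and 0 lower: Per2, a repressor of the clock, at 1593, 1828 and 2013 against 1270.5, 1527 and 2128 (difference 0.24 ± 0.071), and Nr1d2 (0.089 ± 0.037). The labels do not give the hour of collection. With the 3 libraries low in olfactory markers left out, 6 glucocorticoid genes were higher and 2 lower, and the clock counts were 2 and 0.

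Synaptic and channel genes had members on both sides. In the glutamate receptor and postsynaptic list 6 of 50 were higher and 5 lower. Grm2, a presynaptic metabotropic receptor that dampens release, stood at 1915, 2077 and 2598 normalised reads with lithium and 2435, 2542 and 3329 with vehicle, a log2 difference of -0.34 ± 0.079 (limma adjusted p = 0.144; DESeq2 0.00622). Grin1, the obligate NMDA receptor subunit, differed by -0.14 ± 0.035, and Grm5 by 0.15 ± 0.036. In the list for GABA receptors and inhibitory synapses 3 of 22 were higher and 4 lower. The GABA-synthesising enzyme gene Gad1 differed by -0.34 ± 0.16. Among presynaptic genes 6 of 42 were higher, led by Syt4 (0.15 ± 0.041), and 1 lower, Syn3 (-0.21 ± 0.055). The higher shares, 12% for glutamate, 13.6% for GABA and 14.3% for presynaptic genes, were below that of abundant genes, and the lower shares were 10%, 18.2% and 2.38%. Without the 3 libraries low in olfactory markers the higher and lower counts were 3 and 4 for glutamate, 1 and 2 for GABA, and 3 and 1 for presynaptic genes.

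Of 61 potassium channel genes 6 were higher, led by the calcium-gated Kcnn3 (0.20 ± 0.051), and 5 lower, led by Kcnh3 (-0.16 ± 0.044). For sodium and calcium channels the counts were 1 higher and 4 lower of 26, all 4 lower ones being pore subunits of calcium channels (Cacna1c, Cacna1d, Cacna1g and Cacna1i). Without the 3 libraries low in olfactory markers those counts were 0 and 0, and the potassium channel counts 3 and 3. Htr1b, the serotonin 1B receptor gene and the receptor with the smallest p, stood at 294, 324 and 344 normalised reads with lithium and 215, 247 and 295 with vehicle (difference 0.38 ± 0.075, limma adjusted p = 0.13), with 1 vehicle value just inside the lithium range. In the sodium, potassium and lithium transport list 2 of 32 were higher and 6 lower. Beside Slc9a9 the lower ones include Atp1b2, a subunit of the sodium pump (-0.082 ± 0.027). In the adenylyl cyclase and G protein list 8 of 44 were higher and 3 lower. The higher ones include 4 subunits of protein kinase A: Prkar2a (0.13 ± 0.037), Prkar2b (0.17 ± 0.052), Prkar1a (0.076 ± 0.026) and Prkacb (0.10 ± 0.038). In the survival and autophagy list 5 of 33 were higher, with the survival genes Bcl2 (0.17 ± 0.075) and Bcl2l1 (0.11 ± 0.037), and 2 lower, the cell death genes Bid (-0.24 ± 0.071) and Bbc3 (-0.18 ± 0.077). As shares, 9.84% of potassium channel, 3.85% of sodium and calcium channel and 6.25% of transport genes were higher, and 8.2%, 15.4% and 18.8% lower. Of the adenylyl cyclase list 18.2% were higher and of the survival list 15.2%, near the share of abundant genes. In the set without the 3 libraries low in olfactory markers the counts were 1 and 6 for transport, 3 and 3 for adenylyl cyclase and G proteins, and 3 and 2 for survival and autophagy.

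Glycolysis splits glucose for energy, and in its list 6 of 30 gene IDs were higher (20%) and 3 lower (10%). Aldoa holds 2 of those IDs. Besides Pfkfb3, the glucose transporter gene Slc2a1 stood at 3027, 3426 and 3905 normalised reads with lithium and 2477, 3113 and 3236 with vehicle (difference 0.21 ± 0.067). The lower ones were Pfkfb2, Ldhb and Aldoc. Of 13 protein genes of the mitochondrial genome 4 were higher (30.8%) and 0 lower, and the largest 2 differed by 0.58 ± 0.22 (mt-Atp6) and 0.54 ± 0.11 (mt-Nd6). For mt-Nd6 the values were 1339, 1423 and 1595 against 582, 1088 and 1149, without overlap. Vehicle female 3 was the low extreme, and without that library limma called mt-Nd6 (log2 difference 0.41 ± 0.044, adjusted p = 0.00341). Its annotation overlaps that of mt-Nd5 on the opposite strand, and the strand setting of the counting is not stated. How far reads of mt-Nd5 count towards mt-Nd6 was not tested. For mt-Atp6 the values were 6440.5, 16058 and 21938 against 6219, 8994 and 14740.5. In that list 1 was higher and 2 lower without the 3 libraries low in olfactory markers. Of 77 nuclear subunits of oxidative phosphorylation 6 were higher (7.79%) and 2 lower (3 and 3 without those libraries), and the glycolysis counts were then 2 and 1.

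In the proteasome list 6 of 32 were higher (18.8%) and 0 lower, with a median of 0.042. The lid subunit gene Psmd12 was at 1465, 1489.8 and 1585 normalised reads with lithium and 1207, 1405 and 1452 with vehicle, without overlap (difference 0.13 ± 0.038). Of 82 cytosolic ribosomal protein genes, 2 were higher (2.44%) and 7 lower (8.54%), led by Rps12 at 2390.3, 2882 and 3233 against 3133, 3345 and 3534 (difference -0.22 ± 0.051) and Rpl36 (-0.22 ± 0.065). Ribosomal protein genes have many processed copies in the genome, between which reads can be split. In the cholesterol list 4 of 33, or 12.1%, were higher (Sc5d, Msmo1, Idi1 and Cyp51, all enzymes of synthesis) and 1 lower, the lipid carrier Apoe at 26793, 29672 and 32835 against 31545, 32070.0 and 34403 (difference -0.14 ± 0.038). With the 3 libraries low in olfactory markers left out, the higher and lower counts were 2 and 0 for the proteasome, 0 and 6 for ribosomal proteins, and 1 and 2 for cholesterol.

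Markers of cell types differed in several directions, and their part in the results above was not tested. Layer 5 markers had a median difference of 0.12 with 6 of 20 higher (30%) and 0 lower, among them Fezf2 (0.22 ± 0.086) and Bcl11b (0.27 ± 0.11), the factors that specify subcerebral neurons, and Pcp4 (0.20 ± 0.073). Layer 6 markers had a median of 0.13 with 4 of 24 higher (16.7%) and 1 lower. Those layer 6 counts were 2 and 0 without the 3 libraries low in olfactory markers, 1 and 0 without the 2 high in striatal markers, and 0 and 0 with both marker means as covariates, where the median was 0.067. Drd1 of that list (0.75 ± 0.29) is also a striatal marker. Myelin markers had a positive difference in 29 of 30 and a median of 0.15. Only 2 of them, Ermn (0.32 ± 0.14) and Ugt8a (0.29 ± 0.12), reached an unadjusted p under 0.05. The same count held without the 3 libraries low in olfactory markers. Without the 2 high in striatal markers the median was 0.066, with 27 positive and 0 higher at that p. With marker covariates it was 0.076, with 24 positive and 1 higher. The summed level of myelin markers ran from 109906 to 163311 normalised reads with lithium and from 79882 to 152681 with vehicle. Astrocyte markers had 2 of 25 higher (8%) and 7 lower (28%), among the lower ones Ntsr2 at 2242, 2369 and 2445 against 2471, 2529.6 and 2625, without overlap (-0.10 ± 0.028), and Aldh1l1 (-0.15 ± 0.044). Interneuron markers had 3 of 27 higher (11.1%), with Lhx6 (0.31 ± 0.077) and Pvalb (0.17 ± 0.066), and 7 lower (25.9%), with Reln (-0.32 ± 0.13), Calb2 and Dlx1 (-0.62 ± 0.28). Without the 3 libraries low in olfactory markers the interneuron counts were 1 and 0, the astrocyte counts 0 and 4, and the layer 5 counts 3 and 0. The layer 5 counts were 2 and 0 without the 2 high in striatal markers and also with marker covariates. Olfactory markers themselves had a median of -0.99 with 8 of 22 lower, and -0.038 with 0 lower without those libraries. Microglia markers had 1 of 25 higher and 1 lower, and endothelial and mural markers 3 of 28 higher, led by the pericyte gene Rgs5 (0.24 ± 0.052), and 2 lower. For microglia the counts were 1 and 2, and for endothelial and mural cells 4 and 1, without those 3 libraries. Blood markers had 3 of 7 higher (42.9%) and 0 lower, and 1 and 0 without the 3 libraries low in olfactory markers.

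**Figure D5:**
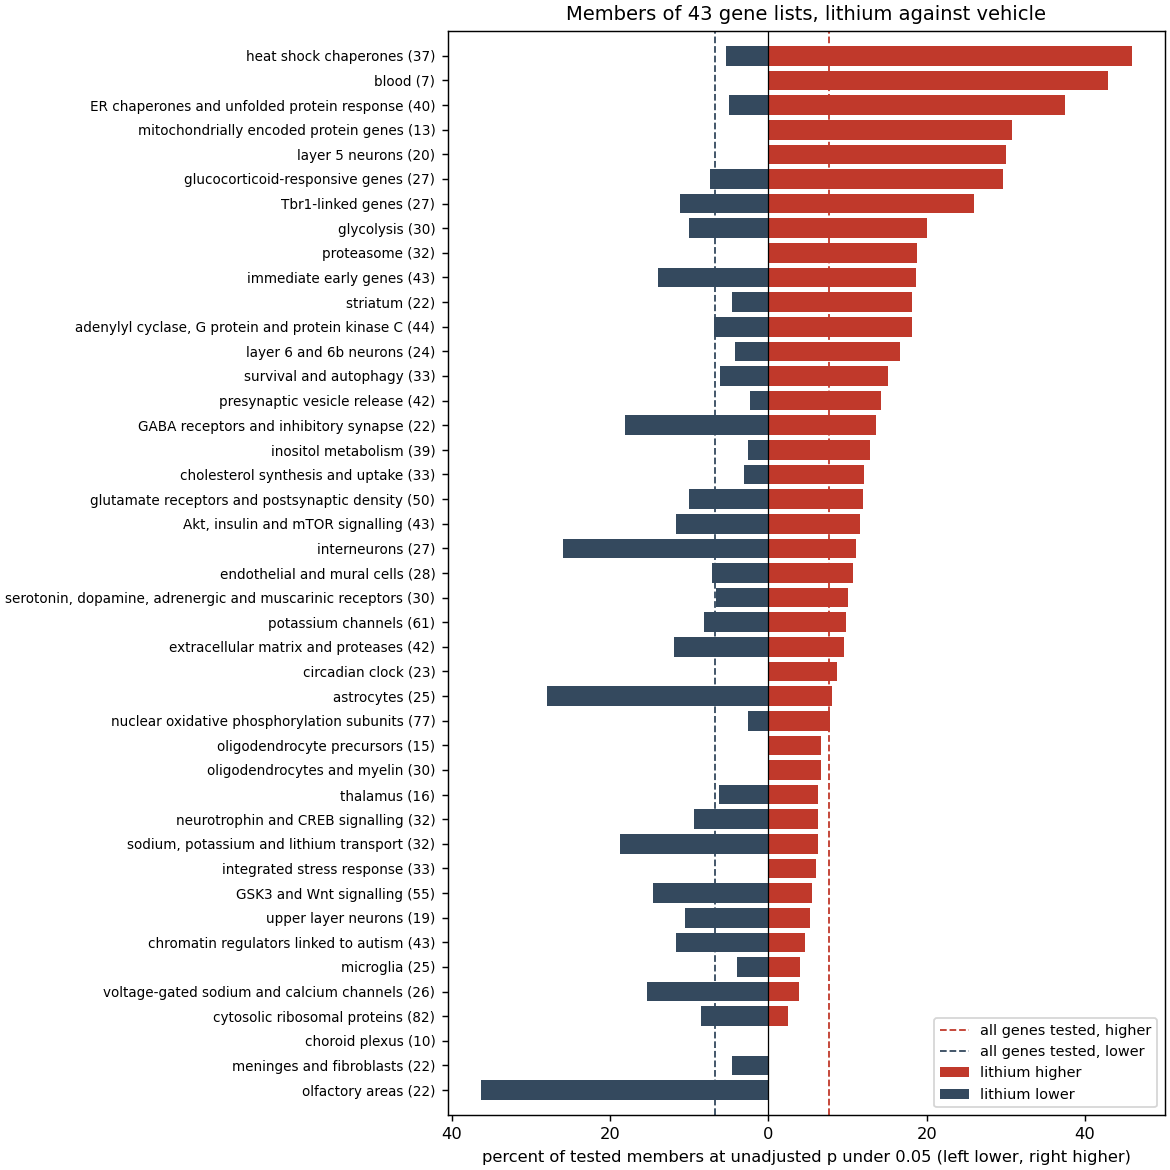
Percent of the tested members of each of the 43 gene lists that were higher or lower with lithium at an unadjusted p under 0.05; dashed lines mark all genes tested, 7.68% higher and 6.81% lower. The heat shock list (17 of 37), the blood marker list (3 of 7) and the ER list (15 of 40) are among those with the highest shares of higher members.

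Lithium-treated carriers were set beside the fluoxetine-treated carriers to see where the treatments differed. Fluoxetine is a serotonin reuptake inhibitor. Limma, fitted over all 29 libraries, called 0 of 17881 genes at an adjusted p of 0.05 and 582 (3.25%) at an unadjusted p under 0.05, 275 higher with lithium (1.54%) and 307 lower (1.72%). edgeR called 0, with 3.18% at an unadjusted p under 0.05, and DESeq2 called 2 (0.0112%). This contrast shares the 7 lithium libraries with that against vehicle. Of the 20 genes named for lithium, 7 had an unadjusted p under 0.05 here. Dnaja1 stood at 7155, 8279 and 8654 normalised reads with fluoxetine, and the lithium minus fluoxetine difference was 0.076 ± 0.033. For Abcc10 it was -0.16 ± 0.045 and for Cirbp -0.15 ± 0.071. Pfkfb3 with fluoxetine was at 1072, 1262 and 1414, a difference of 0.094 ± 0.048. In the heat shock list 3 of 37 were higher and 0 lower, with a median of 0.040, and in the ER list 5 of 40 were higher and 1 lower, with a median of 0.043. Markers of neighbouring tissue moved in this contrast too: striatal markers had a median of -0.36, with 2 of 23 positive and 4 lower, and olfactory markers a median of -0.62, with 1 of 22 positive. Their part in the list values was not tested. A missed threshold does not show that the 2 drugs gave like levels.

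Lithium-treated carriers were also compared with vehicle-treated WT mice. Genotype and drug differ together in this contrast, which alone cannot tell them apart. Vehicle-treated carriers, which share the genotype of the lithium group but not the drug, are not part of this difference. Limma called 289 of 17881 genes at an adjusted p of 0.05 (1.62%), 206 higher in lithium carriers (1.15%) and 83 lower (0.464%). edgeR called 270 (1.51%) and DESeq2 538 (3.4%). The limma count was 145, 187, 124 and 138 without lithium female 3, male 1, male 3 or male 4, and 452, 144, 187 and 154 without WT female 4, male 1, male 2 or male 3. Of the 20 genes named for lithium, 5 were called: Pfkfb3 (0.37 ± 0.048, adjusted p = 0.000295), Schip1 (0.23 ± 0.053, 0.0196), Enox1 (0.21 ± 0.050, 0.0286) and Dnaja1 (0.13 ± 0.033, 0.0438) were higher, and Slc9a9 (-0.22 ± 0.049, 0.0201) was lower. The 20 genes had been chosen with the same lithium libraries, so this count is a description. Pfkfb3 stood at 898, 998 and 1166 normalised reads in WT mice, all below the lithium values. Tbr1 was higher in lithium carriers (0.64 ± 0.094, adjusted p = 0.000458), with no lithium library inside the WT range. By the values given above for Tbr1, no library of vehicle-treated carriers lay inside the WT range either.

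Of the ER list, 9 of 40 members were called higher in lithium carriers than in WT mice and 0 lower, beside 1.15% of all genes called higher. The called members were Hspa5, Pdia4, Pdia6, Hyou1, Manf, Sdf2l1, Herpud1, Derl3 and Xbp1. Hspa5 stood at 5089, 5539 and 6232 normalised reads in WT mice and differed by 0.28 ± 0.050 (adjusted p = 0.00308), and Pdia4 differed by 0.30 ± 0.057 (adjusted p = 0.00521). Canx, without overlap against vehicle carriers, differed by 0.063 ± 0.039 from WT (adjusted p = 0.403). Of the heat shock list 3 of 37 were called higher, Dnaja1, Dnajb5 and Hsph1, and 0 lower. Immediate early genes had 8 of 43 called higher, Ier5 (0.38 ± 0.056) and Homer1 (0.26 ± 0.053) among them, and 2 lower, Jun and Btg2. Clock genes had 4 of 23 called higher: Per2 (0.56 ± 0.076, adjusted p = 0.000295), Bhlhe40, Cry2 and Csnk1d. Glucocorticoid-responsive genes had 2 of 28 called higher, Zbtb16 (0.60 ± 0.094) and Fkbp5 (0.48 ± 0.10), and 3 lower, Ddit4 (-0.36 ± 0.081), Angptl4 and Cebpd. Cell type markers moved in this contrast as well. Over all 17881 genes tested in it, 1680 were higher and 1473 lower at an unadjusted p under 0.05. At an unadjusted p under 0.05, 15 of 25 astrocyte markers were lower (2 called, median -0.11), 15 of 22 of meninges and fibroblasts (1 called, median -0.25), 8 of 28 of endothelial and mural cells (3 called) and 7 of 25 of microglia, and 0 members of these 4 lists were higher. Olfactory markers had a median of -1.15. The part of these markers in the list values was not tested, and with both marker means as covariates limma called 123 genes in place of 289.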

How the data were processed

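Bulk RNA-seq of mouse prefrontal cortex (poly(A) RNA, TruSeq stranded mRNA libraries, per the labels' protocols) was deposited by the authors as 1 table of 18240 genes by 29 libraries. Its values are gene counts divided by 1 factor per library, a signal normalised by the authors: 100% of them were whole multiples of 1 step per library (tolerance 1e-04), so reads could be recovered. The submitters' processing notes name the tools DESeq2 (version 1.19.11), Salmon (version 0.11.2) and R (version 3.6.0) and the genome GRCm38, with no role or order. Strand setting and annotation release are not given in the sources used here. Names of 18227 IDs came from the reference annotation.

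Genes that reached 10 in 3 or more libraries of a fit were tested on log2(value + 1), a scale that understates differences of low genes, with limma 3.58.1 (R 4.3.3, trend, two-sided, Benjamini-Hochberg over all genes, threshold 0.05). Lithium minus vehicle used the 13 carrier libraries with sex as a covariate (10 residual degrees of freedom). The contrasts with fluoxetine and WT used all 29 libraries. edgeR 4.0.16 and DESeq2 1.42.0 on recovered reads were alternatives, as were other scalings, pseudocounts (0.5, 10), filters, weights, marker covariates, a GC correction and a fit without the libraries high in striatal markers, both added after the data were seen, and leaving out libraries.

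Lists were described by counts at an unadjusted p under 0.05, added because no gene passed, beside the shares over all and over abundant genes. Genes named are the 10 with the smallest p in each direction (mean of at least 50), Tbr1, the lithium targets and the 2 members of each of 43 lists with the smallest p. A few genes that this rule names are not reported here. Other list members were chosen after their values were seen. The groups compared, the members and the lists were chosen with earlier results of these data known. The fits were tested on simulated data.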

Additional observations from a re-analysis of the deposited data

Results flagged for a closer look

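Single libraries stood apart from their group in 9 of 216 groups examined over the 108 named genes, by the gap to the nearest library as a share of the group's range (Dixon's 95% critical value). Chance gives about 1 in 20. With lithium, female 1 was low for the putative thiamine transporter Slc35f3 at 713 normalised reads (next lowest 794) and for the protein kinase A subunit Prkar2b at 1481 (next 1780.4). Male 4 was high for the chaperone Dnaja1 at 9064 (next highest 8647) and for the cell death gene Bid at 323 (next 280.5). With vehicle, male 1 was low for the proteasome genes Psmd12 at 1207 (next 1366) and Psmd7 at 2245 (next 2397) and for the glucose transporter Slc2a1 at 2477 (next 2952). Female 3 was low for mt-Nd6 at 582 (next 1003), and male 2 was high for mt-Atp6 at 14740.5 (next 9326). Vehicle male 1 is also the library without which the heat shock count dropped to 10 of 37.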

How the results depend on the processing

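The count of called genes stayed at 0 in 18 of 20 alternatives for lithium minus vehicle. DESeq2 called 300, and the fit without the 3 lithium libraries low in olfactory markers called 1, the gene model Gm14822 (log2 difference 4.15). Leaving out 1 library gave 0 to 137 called genes. The 137 (98 higher, 39 lower) came without lithium female 1 and shared 93 genes with DESeq2's calls, 31% of those and 67.9% of the 137. Of the other leave-one-out fits 3 called 1 gene each: Gm14822 without lithium male 1, mt-Nd6 without vehicle female 3 and Gh without vehicle male 2. Genes at an unadjusted p under 0.05 numbered 1521 to 3003 over 20 alternatives, the 1521 being without the 3 libraries, where fewer samples were tested, and 1678 to 3340 with 1 library left out. Heat shock members higher numbered 10 to 20 and ER members 13 to 17 with 1 library left out. With marker means as covariates Gsk3a came to -0.023 and Aqp1 to 0.12, and Gsk3a came to -0.011 without the 3 libraries, each opposite in sign to the main value. The cause was not tested.

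Libraries of the 2 groups with the same replicate number in their titles did not deviate together (correlations -0.152, -0.106 and -0.050 in females, -0.072, -0.011 and 0.098 in males), so numbers were not taken as pairs. In vehicle females the library names carry other numbers than the titles, and pairing by those names was not tested. With the replicate number as a block, 0 genes were called for lithium minus vehicle, 10 of 37 heat shock members and 14 of 40 ER members were higher, and 1909 genes had an unadjusted p under 0.05. The block called 0 genes against fluoxetine and 360 against WT.

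Against fluoxetine DESeq2 called 2 genes, and leaving out 1 library gave 0 to 0. Against WT the count was 660 with library weights, 151 with no sex term, 650 at a threshold of 0.1, 538 with DESeq2 and 123 with marker covariates, and 124 to 452 with 1 library left out. Depth limits genes near 0 reads, such as Gm14822, whose fitted difference depends on the pseudocount and is no bound.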

Other observations

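Hormone genes of the pituitary, chosen after their values were seen, were low and uneven. Prl, which encodes prolactin, stood at 3.77, 32.0 and 113 normalised reads (lowest, median and highest) in the lithium libraries and at 0, 7.81 and 21.8 in the vehicle carriers. In the fluoxetine libraries it ran from 0 to 99.6 and in WT mice from 0 to 61.1. Gh, which encodes growth hormone, stood at 7.56, 23.5 and 83.8 with lithium and at 0, 6.30 and 21.4 with vehicle, while WT mice ran from 1.09 to 167. Pomc, expressed in the pituitary and the hypothalamus, had medians of 31.7 with lithium and 33.0 with vehicle. Limma called Gh against vehicle only when vehicle male 2 was left out (log2 difference 3.05 ± 0.35, adjusted p = 0.00781).

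Gm14822, a gene model without an assigned name and also chosen after its values were seen, was at 0 in all 6 vehicle libraries and above 0 in 6 of 7 lithium libraries, with a median of 12.6 and a highest value of 29.2 normalised reads. It was at 0 in 6 of 8 fluoxetine libraries and in 3 of 8 WT libraries.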
